A study of Mus musculus with 6 samples.

Results

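The enzymes described here are the 9 superoxide dismutases, catalase and glutathione peroxidases Sod1, Sod2, Sod3, Cat, Gpx1, Gpx3, Gpx4, Gpx7 and Gpx8, out of 16797 genes measured in NIH3T3 mouse fibroblasts (Normal cells). They were chosen by gene symbol, through probe sets that the annotation pairs with exactly 1 gene, at a time when the differences between FSK-treated and untreated cells on these same arrays were already known. Their differences between the treatments are therefore given as a description, with no p-values. The 9 genes had 10 probe sets, 2 of them for Gpx4. NF cells received 10 μM forskolin (FSK), which activates adenylate cyclase and through cAMP the kinase PKA, at 24 h and at 48 h of growth in low glucose. N cells received no FSK. The paper describes DMSO, the vehicle, for cells without FSK, and the array labels say only that there was no FSK. NF and N cells were the same immortalized line, used by the study as a model of untransformed cells, plated in 25 mM glucose and grown for 72 h after a change to 1 mM glucose. RNA of 3 biological replicates of each was measured on Affymetrix gene arrays, 6 arrays in all. Values are log2 expression values (RMA), so a difference of 1 is a 2-fold change.

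Superoxide dismutases turn superoxide, a by-product of respiration and of oxidase enzymes, into hydrogen peroxide. Sod1 holds copper and zinc and acts mainly in the cytosol, Sod2 holds manganese and acts in the mitochondrial matrix, and Sod3 is a secreted copper and zinc enzyme that binds to the extracellular matrix. Hydrogen peroxide is then removed by catalase in peroxisomes and by glutathione peroxidases, of which Gpx1, Gpx3 and Gpx4 carry selenocysteine in the active site and Gpx7 and Gpx8 are cysteine enzymes of the endoplasmic reticulum (ER). Glutathione oxidized in this way is reduced again with NADPH, much of which comes from glucose.

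N replicate 1 stood apart from the other untreated arrays. Over 5189 probe sets of moderate expression, its median difference from the other arrays of its group was -0.49, against 0.13 for N replicate 2, 0.36 for N replicate 3 and between -0.05 and 0.04 for the NF arrays. Each enzyme's difference is therefore also given without N replicate 1. Of 10 fibroblast markers 9 were above the median of all probe sets (3.70), Fn1, Vim, Sparc and Col1a2 among them, and Lum was below it. Epithelial, endothelial, adipocyte and leukocyte markers were mostly below that median, with 5 of 6, 5 of 5, 6 of 7 and 3 of 4 genes under it, Epcam, Pecam1, Adipoq and Ptprc included. The log2 values of the 4 leukocyte markers summed to 14.6 to 15.2 in NF arrays and to 13.3 to 14.1 in N arrays (13.3 was N replicate 1). Most of that gap was Cd14, higher in NF (difference 1.05, adjusted p = 0.0439 from limma). Ptprc, Cd68 and Itgam were below the median, with differences of 0.11, -0.02 and 0.004. Those of the 10 fibroblast markers summed to 86.2 to 88.1 in NF arrays and to 81.2 to 86.4 in N arrays, where the lowest sum was that of N replicate 1 and the other N arrays had 86.4 and 85.0. Their median difference was 0.20 with all arrays and 0.03 without N replicate 1, and Col3a1 was higher in NF (difference 1.33, adjusted p = 0.0157 from limma). Cd14 lost its call without N replicate 3 or any single NF array, and for Col3a1 the call was lost when N replicate 3, the first NF replicate or the third was left out (limma adjusted p between 0.0561 and 0.235). The part of these markers in the differences below was not tested, and in RNA of whole cultures fewer cells of a kind and less RNA per cell cannot be told apart.

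As a count only, 1 of the 9 enzymes, Sod3, lay past the threshold of the limma fit over all genes (adjusted p under 0.05, higher in NF). Over all 16797 genes 2.55% passed, 1.83% higher and 0.72% lower in NF. The enzymes were chosen with this contrast known, so neither the count nor the side of the threshold on which Sod3 lay is a test of it. The other 8 differed by 0.44 or less on the log2 scale. Changes of at least their size, in either direction, were seen in between 14.6% (Sod2) and 85.6% (Gpx3) of all genes. That share was 20.0% for Gpx1 and 26.9% for Gpx4. The median difference of the 9 enzymes was 0.25, which was the value of Cat, against -0.03 over all genes. Without N replicate 1 both medians were close to 0, at -0.01 for the enzymes and -0.02 over all genes. The arrays of NF and N did not overlap for 4 of the 9 enzymes, Sod2 and Sod3 with all NF arrays higher and Gpx1 and Gpx4 with all NF arrays lower, where 20.2% of all genes did not overlap in either direction.

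**Figure D1:**
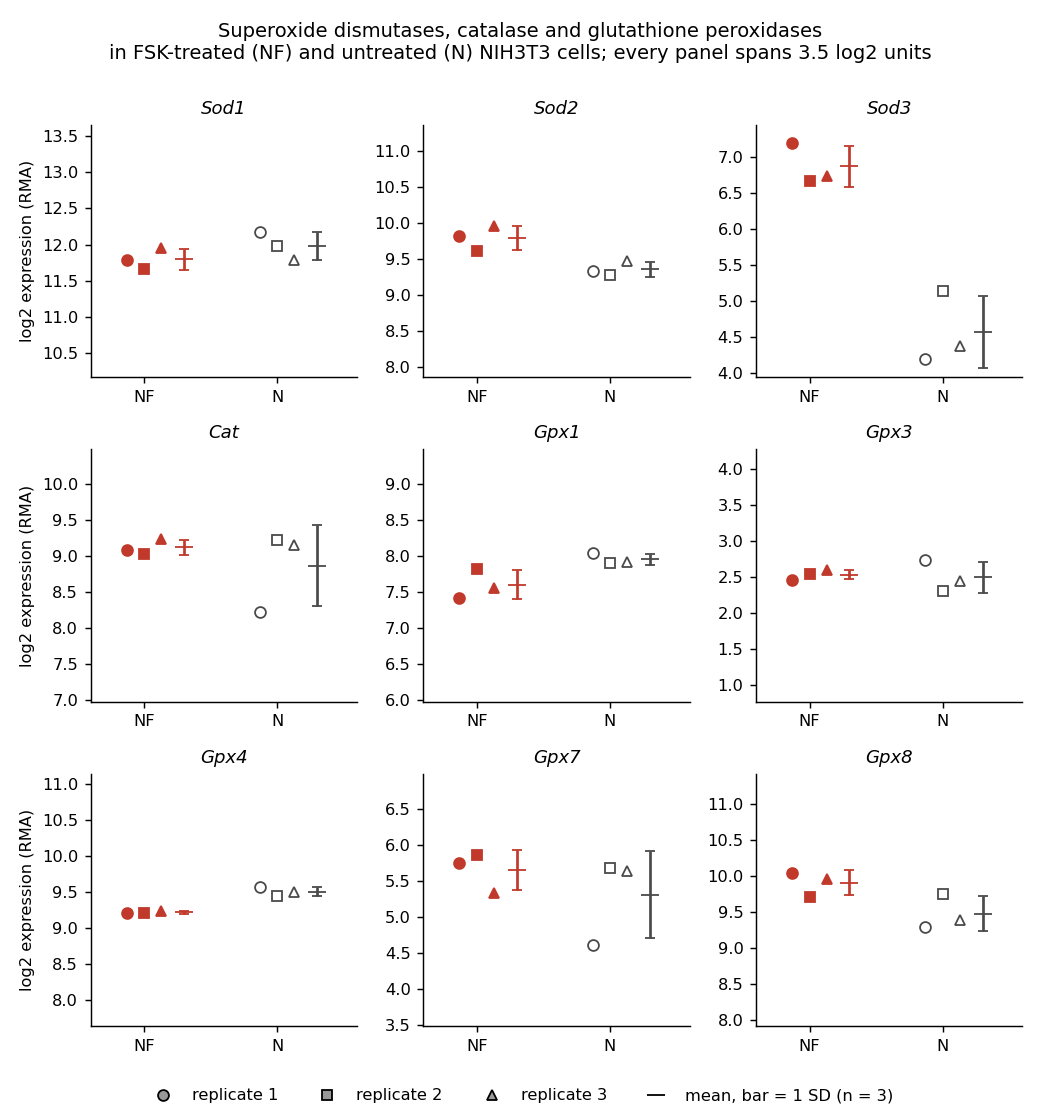
Log2 expression (RMA, vertical axis) of the 9 enzymes in FSK-treated (NF, filled) and untreated (N, open) NIH3T3 cells, with 1 symbol per array, a dash at the group mean and a bar of 1 SD (n = 3), and the same span on every axis. Sod3 shows the widest gap between the groups, and N replicate 1 (open circle) lies far below the other N arrays for Cat and Gpx7.

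Of the 3 dismutases, Sod3 had the largest difference and Sod1 the smallest. Sod3, the extracellular enzyme, had log2 values of 7.19, 6.67 and 6.73 in NF arrays, against 4.19, 5.14 and 4.38 in N arrays. All NF arrays lay above all N arrays by a margin wider than the range within either group, and the highest N array was replicate 2. The means were 6.86 ± 0.29 in NF and 4.57 ± 0.50 in N (SD, n = 3 each), a difference of 2.30 with a standard error of 0.26, or 4.91-fold. Changes of this size or more, in either direction, were seen in 18 of the 16797 genes, Sod3 included. The difference was 2.11 without N replicate 1 and lay between 2.11 and 2.58 with each array left out in turn. The count of enzymes past the threshold was 0 without NF replicate 1 or without NF replicate 3, where only 1 and 2 of all genes passed (limma). Before adjustment 2 and 1 of the 9 enzymes lay below 0.05 there, as did 1491 and 1547 of all 16797 genes. These counts are no test of the enzymes, which were chosen with the contrast known.

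Sod2, the mitochondrial enzyme, had log2 values of 9.81, 9.61 and 9.95 in NF arrays, against 9.33, 9.27 and 9.47 in N arrays. The NF arrays were the higher ones, with a gap between the lowest NF and the highest N array that was smaller than the range within each group. The means were 9.79 ± 0.17 in NF and 9.35 ± 0.10 in N (SD, n = 3 each), a difference of 0.44 (standard error 0.14), and 0.42 without N replicate 1.

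Sod1, the cytosolic enzyme, had log2 values of 11.79, 11.65 and 11.95 in NF arrays, against 12.17, 11.98 and 11.78 in N arrays. Here the groups overlapped, since N replicate 3 lay below 2 of the NF arrays. The means were 11.80 ± 0.15 in NF and 11.98 ± 0.19 in N (SD, n = 3 each), a difference of -0.18 (standard error 0.15), and -0.08 without N replicate 1.

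Cat, the peroxisomal enzyme that splits hydrogen peroxide without glutathione, had log2 values of 9.09, 9.04 and 9.24 in NF arrays, against 8.22, 9.23 and 9.16 in N arrays. N replicate 1 lay below the mean of the other N arrays (a difference of -0.97), and the remaining N arrays lay within the range of the NF arrays. The difference of the means was 0.25 (standard error 0.26) with all arrays and -0.07 without N replicate 1, so its sign rested on that array.

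Gpx7, a peroxidase of the ER, showed the same dependence. Its log2 values were 5.74, 5.86 and 5.33 in NF arrays, against 4.61, 5.67 and 5.64 in N arrays. The difference was 0.34 (standard error 0.29) with all arrays and -0.01 without N replicate 1, which lay below the mean of the other N arrays (a difference of -1.04). For Cat and Gpx7 the part of N replicate 1 is thus measured, and without it the group means differed by less than the SD of the NF arrays, 0.11 for Cat and 0.28 for Gpx7.

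Gpx8, the second ER enzyme, had log2 values of 10.04, 9.71 and 9.96 in NF arrays, against 9.29, 9.74 and 9.39 in N arrays. The highest N array, replicate 2, lay just above the lowest NF array, replicate 2. The difference was 0.43 (standard error 0.16), and 0.34 without N replicate 1.

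Both selenocysteine enzymes above the median of all probe sets, Gpx1 and Gpx4, had lower values in every NF array. Gpx1, the main cytosolic glutathione peroxidase, had log2 values of 7.42, 7.82 and 7.56 in NF arrays, against 8.04, 7.91 and 7.91 in N arrays. NF replicate 2 lay closest to the N arrays. The difference was -0.35 (standard error 0.14), and -0.31 without N replicate 1.

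Gpx4, which reduces lipid hydroperoxides within membranes and so protects cells from ferroptosis, was measured by 2 probe sets. The one that represents the gene had log2 values of 9.21, 9.22 and 9.25 in NF arrays, against 9.58, 9.45 and 9.50 in N arrays. The other had 9.39, 9.43 and 9.45 in NF arrays, against 9.72, 9.66 and 9.73 in N arrays. In both, every NF array was lower than every N array and the replicates of a group lay close together, with SDs of 0.02 and 0.03 in NF and 0.06 and 0.04 in N. The difference was -0.29 (standard error 0.12) for the first and -0.28 (standard error 0.11) for the second, and -0.25 and -0.27 without N replicate 1. The annotation lists the same transcripts for both, so they are not independent measurements.

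Gpx3, the plasma peroxidase, was the 1 enzyme with a mean below the median of all probe sets, 2.51 against 3.70. Its log2 values were 2.46, 2.54 and 2.59 in NF arrays, against 2.73, 2.30 and 2.43 in N arrays, with the NF arrays inside the range of the N arrays. The difference was 0.04 (standard error 0.15) with all arrays, 0.16 without N replicate 1, and between -0.05 and 0.16 with each array left out in turn. Gpx2, Gpx5 and Gpx6, the glutathione peroxidases outside the set, were also dim, meaning below that median. Their log2 means were 2.66, 2.38 and 2.63 in NF arrays, against 2.92, 2.34 and 2.56 in N arrays, and none of them passed the test.

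**Figure D2:**
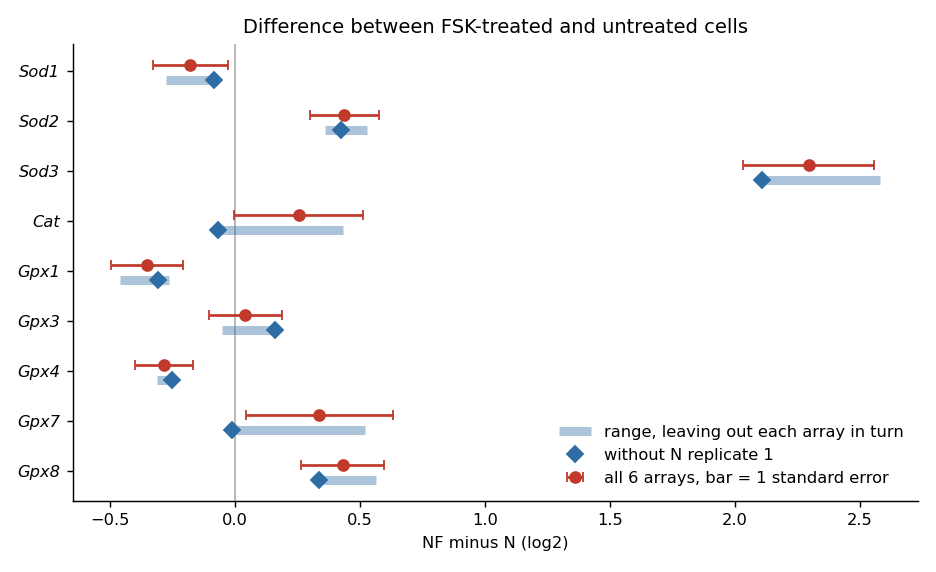
Difference NF minus N (log2, horizontal axis) of the 9 enzymes with all 6 arrays (circle, bar of 1 standard error) and without N replicate 1 (diamond), with a band for the range when each array was left out in turn. Sod3 lies between 2.11 and 2.58 in that range, while Cat and Gpx7 move to -0.07 and -0.01 without N replicate 1.

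The genes whose log2 values followed those of Sod3 most closely over the 6 arrays were Ncapg, a condensin subunit (Pearson r = 0.9998), Cdc20, an activator of the anaphase-promoting complex (0.999), Actr1a, a dynactin subunit (0.998), Ckap2, a spindle protein (0.998), and Cerk, ceramide kinase (0.996). They were the first 5 of 8267 genes with a mean above the median, and the correlations describe 6 arrays that share the separation of NF from N. All 5 were higher in NF, in the same order by 1.17, 1.54, 0.57, 1.57 and 0.98. For this contrast the paper reports cell cycle genes as enriched among those repressed by FSK. Ncapg, Cdc20 and Ckap2, which act in cell division, were higher in NF, the opposite direction to that report. They were picked by their likeness to Sod3, and cell cycle genes as a set were not tested here. Among the 9 enzymes, Gpx4 ran most nearly opposite to Sod3 (r = -0.988) and Gpx8 most nearly with it (r = 0.913), again over 6 arrays in 2 groups.

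Promoters bear on the question of whether the enzymes share the sites through which cAMP or oxidants are known to act. The RefSeq table (GRCm38.p6) held 11 promoters of 8 of the enzymes and none of Sod3, each running from 250 bases before to 50 after a start. They were searched on both strands for the CRE bound by CREB (TGACGTCA), its core (TGACG, which also lies within the CRE), the antioxidant response element bound by NRF2 (TGACNNNGC) and a FOXO site (GTAAACA). The full CRE and the FOXO site matched in 0 of these 11, while 1.79% and 3.65% of all 32851 promoters in the table hold them. The CRE core was found for 2 of the 8 enzymes, Sod1 and Gpx4, where 6228 of 27025 genes hold it. By promoter it was in 4 of 11, where 20.8% of all promoters hold it, and 3 of those 4 belong to Gpx4. The antioxidant response element was found in 1, that of Sod1, where 12.4% of all promoters hold it. For 2 of the 3 Gpx4 promoters with a match, which overlap, it is the same site. A match is a run of letters and not a measured binding site. The promoters of Sod2 and Gpx4, on opposite sides in the arrays, of Sod1, which holds both matches, and of Atp7a, a copper transporter described below, are shown 5′ to 3′ with matches in capitals.
Sod2 (chr17:13007589-13007888, + strand, no match): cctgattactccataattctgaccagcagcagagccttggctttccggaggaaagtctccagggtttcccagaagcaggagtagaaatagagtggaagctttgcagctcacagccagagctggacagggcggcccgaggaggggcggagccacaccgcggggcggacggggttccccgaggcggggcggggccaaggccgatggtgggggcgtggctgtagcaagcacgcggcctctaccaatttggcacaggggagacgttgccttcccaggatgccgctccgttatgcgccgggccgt
Gpx4 (chr10:80053409-80053708, + strand, CRE core read on the opposite strand): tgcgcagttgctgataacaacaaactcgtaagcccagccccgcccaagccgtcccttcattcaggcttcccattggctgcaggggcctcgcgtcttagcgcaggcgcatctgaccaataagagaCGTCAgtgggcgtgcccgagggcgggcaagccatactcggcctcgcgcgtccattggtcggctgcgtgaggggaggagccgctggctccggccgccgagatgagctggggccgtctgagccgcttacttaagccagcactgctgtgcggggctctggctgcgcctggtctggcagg
Sod1 (chr16:90220512-90220811, + strand, CRE core and then antioxidant response element, both on the opposite strand): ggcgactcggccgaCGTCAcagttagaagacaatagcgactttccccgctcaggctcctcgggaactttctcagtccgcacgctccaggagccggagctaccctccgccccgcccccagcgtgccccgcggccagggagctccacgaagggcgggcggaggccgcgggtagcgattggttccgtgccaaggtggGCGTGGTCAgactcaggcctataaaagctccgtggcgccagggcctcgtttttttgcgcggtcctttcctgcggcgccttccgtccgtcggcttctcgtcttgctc
Atp7a (chrX:106026974-106027273, + strand, CRE core): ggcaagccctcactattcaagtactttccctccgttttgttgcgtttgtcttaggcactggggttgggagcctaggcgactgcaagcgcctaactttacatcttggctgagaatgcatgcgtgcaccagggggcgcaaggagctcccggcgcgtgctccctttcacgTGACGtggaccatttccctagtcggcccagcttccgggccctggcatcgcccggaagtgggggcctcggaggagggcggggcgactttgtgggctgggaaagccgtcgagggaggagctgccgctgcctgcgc

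The genes around these enzymes were taken as 6 lists, and each gene was tested in the limma fit over all genes with Benjamini-Hochberg adjustment. The lists were chosen with earlier results of these data known. The counts of every list stand beside the same shares over all genes, 1.83% higher and 0.72% lower in NF. In the list of SOD and GPX relatives and metal supply, 13 of 14 genes were measured, 1 rose, 0 fell and 12 did not pass, with a median difference of 0.12 (all genes -0.03, with 1.83% higher and 0.72% lower). The gene that rose was Atp7a, the copper-transporting ATPase of the Golgi that loads secreted copper enzymes, Sod3 among them. Its log2 values were 8.22, 7.78 and 8.16 in NF arrays, against 6.57, 7.21 and 7.18 in N arrays, without overlap. The difference was 1.07 (standard error 0.21, adjusted p = 0.0446 from limma), or 2.10-fold. Without N replicate 1, its lowest array, the difference of Atp7a was 0.86. Its call was kept without N replicate 1 and lost when any other single array was left out (limma adjusted p between 0.0641 and 0.236). Ccs, the copper chaperone of Sod1, and the copper importer Slc31a1 did not pass, and Slc31a1 averaged 8.07 ± 0.13 in NF and 7.53 ± 0.64 in N (SD, n = 3 each). That difference was 0.54 with all arrays and 0.19 without N replicate 1. Mt1, a metallothionein that binds zinc and copper, had a difference of 0.34 (limma, adjusted p = 0.286).

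Of 14 measured genes of peroxiredoxins and the thioredoxin system, out of 18 listed, 1 rose, 0 fell and 13 did not pass, with a median difference of 0.13. Glrx, glutaredoxin, which removes glutathione from protein thiols, had log2 values of 6.98, 6.50 and 7.27 in NF arrays, against 5.06, 5.61 and 4.87 in N arrays. All NF arrays were higher, and the difference was 1.73 (standard error 0.25, adjusted p = 0.0173 from limma), or 3.33-fold. The call was lost without N replicate 3, without NF replicate 1 and without NF replicate 3 (limma adjusted p = 0.0571, 0.116 and 0.119). Prdx4, the peroxiredoxin of the ER, had a difference of 0.48 (adjusted p = 0.188) and the thioredoxin inhibitor Txnip one of 0.62 (limma, adjusted p = 0.223), both with all NF arrays higher. Txnip was dim, and its difference was 0.45 without N replicate 1, its lowest array.

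The glutathione that the peroxidases spend is made from cysteine. Of 16 measured genes of glutathione synthesis, breakdown and reduction, out of 21 listed, 0 rose, 2 fell and 14 did not pass, with a median difference of -0.04 over the list and -0.13 without N replicate 1. Cth, which makes cysteine by transsulfuration, had log2 values of 4.14, 5.83 and 4.75 in NF arrays, against 7.55, 7.71 and 8.35 in N arrays. It fell by 2.96 on the log2 scale (standard error 0.41, adjusted p = 0.0150 from limma). Chac1, which degrades glutathione, had 6.16, 7.99 and 6.28 in NF arrays, against 8.81, 9.04 and 9.53 in N arrays, and fell by 2.32 on the log2 scale (standard error 0.46, adjusted p = 0.0447 from limma).

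NF replicate 2 was the highest of the NF arrays for both genes, and no NF array reached the N arrays. With each array left out in turn, Cth lost its call without NF replicate 1 and without NF replicate 3 (limma adjusted p = 0.0796 and 0.122). Chac1 kept its call without N replicate 1 and without NF replicate 2 and lost it with any of the other 4 arrays left out (limma adjusted p between 0.103 and 0.238). Slc7a11, the cystine importer, had a difference of -2.60 (standard error 0.54; limma, adjusted p = 0.0519), and Pgd, which supplies NADPH, one of 0.65 (adjusted p = 0.0852). Slc7a11 passed without N replicate 1 (adjusted p = 0.0298) and without NF replicate 2 (adjusted p = 0.0148, limma). It did not pass with any other single array left out (limma adjusted p between 0.0930 and 0.249). It also passed after centring, without dim probe sets, with trend and robust estimation and after quantile normalization (adjusted p between 0.0213 and 0.0422, limma).

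**Figure D3:**
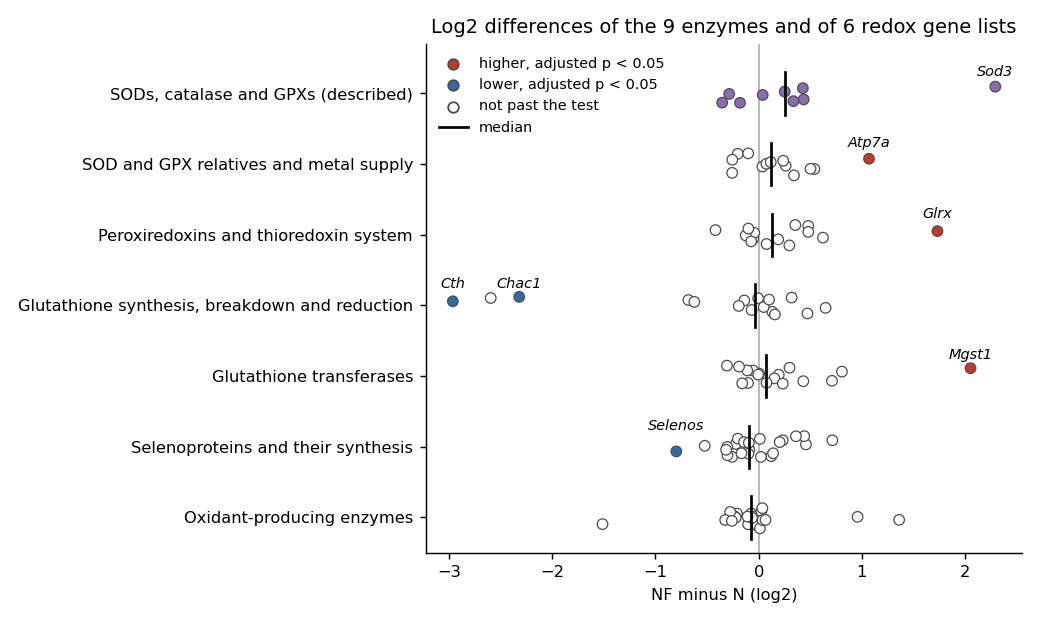
Difference NF minus N (log2, horizontal axis) of the 9 enzymes (purple, given as a description) and of the measured genes of 6 redox lists, with 1 point per gene, a line at each median, and filled red or blue points for genes higher or lower in NF at an adjusted p under 0.05 (limma). Named points are Sod3 (2.30) and the 6 list genes past the test, which lie between -2.96 and 2.05, and each list's median lies between -0.09 and 0.13.

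Of 17 measured glutathione transferases, out of 23 listed, which join glutathione to reactive compounds, 1 rose, 0 fell and 16 did not pass, with a median difference of 0.08. Mgst1, a microsomal enzyme that also has peroxidase activity, had log2 values of 7.84, 7.44 and 7.99 in NF arrays, against 5.08, 6.23 and 5.80 in N arrays. The groups lay far apart, with a difference of 2.05 (standard error 0.29, adjusted p = 0.0156 from limma), or 4.16-fold, and N replicate 1 was the lowest array. Without that array the difference of Mgst1 was 1.74. Its call was lost without NF replicate 1 and without NF replicate 3 (limma adjusted p = 0.107 and 0.122). Gsta4 and Gstm1 had differences of 0.81 and 0.71 (adjusted p = 0.117 and 0.213 from limma), with all NF arrays higher, and that of Gstm1 was 0.47 without N replicate 1. Transferase genes of the Gstm family are close in sequence, so their probe sets may share signal.

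Gpx1, Gpx3 and Gpx4 depend on the machinery that inserts selenocysteine. Of 23 measured genes of selenoproteins and their synthesis, out of 24 listed, 0 rose, 1 fell and 22 did not pass, with a median difference of -0.09. Selenos, a selenoprotein of the ER membrane that takes part in the removal of misfolded proteins, had log2 values of 6.40, 6.73 and 6.70 in NF arrays, against 7.42, 7.24 and 7.57 in N arrays. It fell by 0.80 on the log2 scale (standard error 0.15, adjusted p = 0.0395 from limma). Its call was kept without N replicate 1 and lost when any other single array was left out (limma adjusted p between 0.0552 and 0.216), and with trend and robust estimation (0.0758). Sephs2, which makes the selenium donor, had 6.17, 6.15 and 6.48 in NF arrays, against 4.84, 6.04 and 5.77 in N arrays (limma, adjusted p = 0.336), and Eefsec, the elongation factor for selenocysteine, had a difference of 0.46 (adjusted p = 0.426). Without N replicate 1 the differences were 0.36 for Sephs2, against 0.72 with all arrays, and 0.22 for Eefsec.

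Of 21 measured enzymes that produce superoxide or hydrogen peroxide, out of 25 listed, none passed (0 by limma, with 3 below 0.05 before adjustment, and likewise 0 and 3 by the test named in the methods' statistics), and 13 were below the median of all probe sets, Nox1, Nox4 and Cybb among them. Ero1a, the ER oxidase that passes electrons to oxygen, had log2 values of 8.38, 9.35 and 8.33 in NF arrays, against 9.90, 10.01 and 10.69 in N arrays (adjusted p = 0.0519 from limma). Xdh, xanthine oxidoreductase, had 10.16, 10.04 and 10.30 in NF arrays, against 8.12, 8.95 and 9.35 in N arrays (adjusted p = 0.0522 from limma). The groups did not overlap for either gene, with differences of -1.51 and 1.36. Without N replicate 1 the differences were -1.66 for Ero1a and 1.02 for Xdh. Both passed without N replicate 1 (adjusted p = 0.0194 and 0.00862 from limma), and Ero1a also without NF replicate 2 (adjusted p = 0.0244) and Xdh without N replicate 3 (adjusted p = 0.0458). With any other single array left out, Ero1a did not pass (limma adjusted p between 0.0995 and 0.263). The same held for Xdh (limma adjusted p between 0.104 and 0.263). Acox3, a peroxisomal oxidase, had a difference of 0.96 (limma, adjusted p = 0.110).

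**Figure D4:**
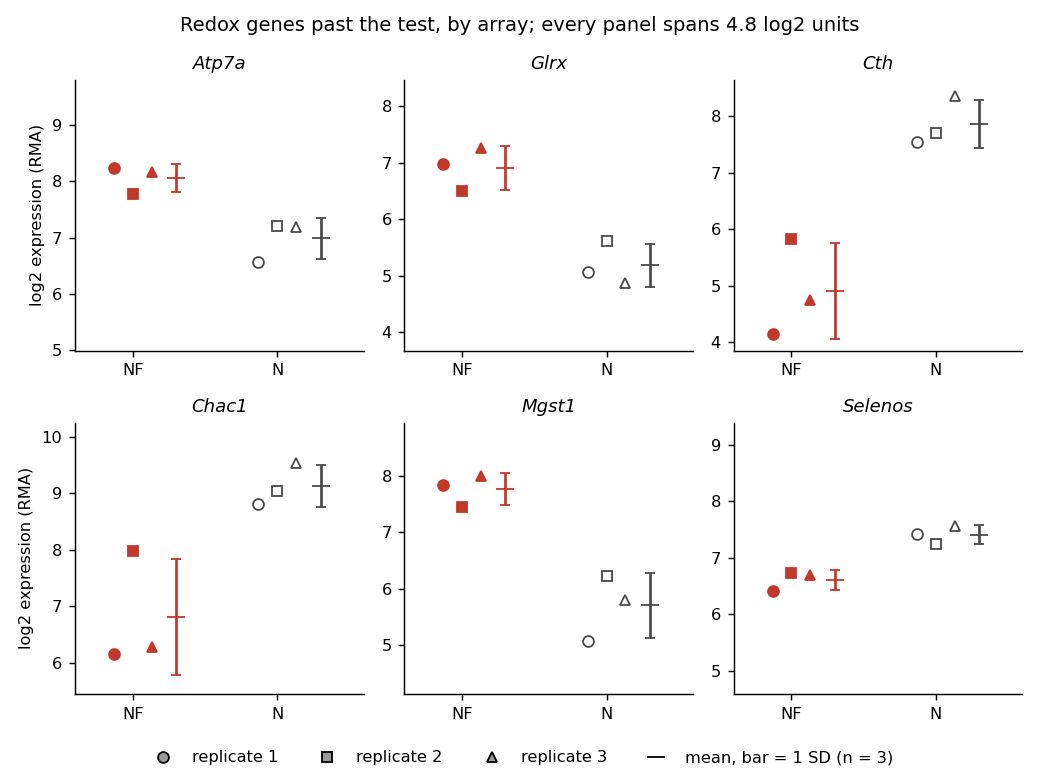
Log2 expression (RMA, vertical axis) of the 6 redox genes past the test in FSK-treated (NF, filled) and untreated (N, open) cells, with 1 symbol per array, a dash at the group mean and a bar of 1 SD (n = 3), and the same span on every axis. Atp7a, Glrx and Mgst1 are higher in every NF array and Cth, Chac1 and Selenos lower in every NF array, with NF replicate 2 the nearest to N for Cth and Chac1.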

How the data were processed

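The authors deposited log2 values from RMA, run in the R/Bioconductor package oligo (version not given in the sources used here). RMA subtracts background, brings the probes of all arrays run together to 1 distribution and combines the probes of each set. A value is therefore relative to the other arrays. The deposited values of the 6 arrays did not share 1 distribution. Over the probe sets tested, the SD was 2.19 for N replicate 1 and between 2.37 and 2.42 for the other arrays. The authors also removed probe sets without an Entrez gene, with annotation from ENSEMBL. Of 22035 probe sets, 18197 were paired with 1 gene symbol (16797 genes) and tested, 1260 had several symbols and 2578 were not listed, and those were left out. All 6 columns were named by sample. The comparison of NF and N used limma 3.58.1 under R 4.3.3 (lmFit and eBayes, Benjamini-Hochberg over all probe sets, threshold 0.05). For 708 genes with several probe sets, the set shown had the smallest p, a rule taken from the study's methods, as was limma.

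The 9 enzymes, the 6 gene lists and the marker lists were chosen with earlier results of these data known. Genes were named by rule: the 9 enzymes, Gpx2, Gpx5 and Gpx6, up to 4 genes with the lowest p and up to 6 past the test of each list, and the 5 genes that correlated most with Sod3. Fn1, Vim, Sparc, Col1a2 and other markers, Ccs, Nox1, Nox4 and Cybb were named beside them after their values were seen. Listed genes without a probe set of 1 gene were not used here. The fit was tested on simulated data. Alternatives were a block for the replicate number, a further quantile normalization, centring on the median, no dim probe sets, the probe set with the highest mean, trend and robust options, the Student's test of the study's statistics section (the methods' t-test), a promoter window without the bases after the start, and each array left out. The labels call the arrays biological replicates, and their number limits the precision of all values. Protein sequences were not used here.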

Additional observations from a re-analysis of the deposited data

How the results depend on the processing

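The number of genes past the threshold was 428 with the fit as reported. It was 870 after a further quantile normalization, 80 with the replicate number as a block and 1 by Student's test (1861 before adjustment), and between 1 and 922 with an array left out (leaving out N replicate 1 gave 922 and N replicate 3 gave 139, while leaving out NF replicate 1 gave 1, NF replicate 2 gave 241 and NF replicate 3 gave 2). Same-numbered NF and N arrays deviated from their group means with correlations of -0.0748, -0.0780 and -0.0736, so the numbers were not taken as pairs. Higher and lower genes numbered 307 and 121 as reported, 497 and 373 after quantile normalization and 492 and 430 without N replicate 1. The count of the 9 enzymes past the threshold, a description and no test of them, was 1 as reported and with the block, 0 by Student's test (4 below 0.05 before adjustment) and between 0 and 1 with an array left out. With the block the counts were 0 for the lists of metal supply, peroxiredoxins, transferases and selenoproteins (limma, with 3, 4, 3 and 3 below 0.05 before adjustment) and 1 for glutathione synthesis. Atp7a, Glrx, Mgst1, Chac1 and Selenos lost their calls with it (adjusted p = 0.113, 0.0734, 0.0576, 0.0759 and 0.100) and Cth did not (0.0456). Student's test gave 0 for each list (2 to 5 below 0.05 before adjustment), so all 6 of these genes lost their calls by it (adjusted p between 0.290 and 0.377). The selenoprotein count was 0 with trend and robust estimation (limma, 3 unadjusted), and quantile normalization gave 4 for glutathione synthesis, with Slc7a11 and Pgd beside the 2 reported. Centring, leaving out dim probe sets and trend and robust estimation each gave 3 there, with Slc7a11 added. The oxidant-producing enzymes, 0 as reported, gave 2 after centring, after quantile normalization, without dim probe sets and with trend and robust estimation, and these were Ero1a and Xdh. With an array left out the ranges were 0 to 4 for glutathione synthesis, 0 to 2 for oxidant-producing enzymes and 0 to 1 for the other 4 lists. The differences of the 9 enzymes moved by less than the pooled SD within groups in all 116 alternatives that gave a value. This measure could hardly have come out otherwise. For a given probe set, the block, the trend and robust options and Student's test change the error of a difference and not its size. With 3 arrays per group, a deviant array also widens the pooled SD of all 6 arrays more than leaving it out moves the difference. Without N replicate 1, Cat went from 0.25 to -0.07 and Gpx7 from 0.34 to -0.01. Of the other named genes, Gpx5, 0.04 as reported, was -0.042 without NF replicate 3 and 0.11 without NF replicate 1, its lowest and highest values with an array left out, and Gpx6, 0.08 as reported, was -0.012 without NF replicate 1 and 0.12 without NF replicate 2. What caused either change was not tested. The promoter matches of the enzymes were the same without the bases after the start. Gpx2, Gpx3, Gpx5, Gpx6 and other dim genes had no value without dim probe sets.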
